A study of Oryza sativa with 5 samples.

Results

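Closely paired short regions of H3K4me3 are short stretches of this histone mark that lie next to another such stretch, separated by a narrow valley. They were taken here from peak lists of rice male meiocytes. A region was a run of bases lying in peaks of both H3K4me3 replicates. The members were chosen by measured values of the H3K4me3 lists, the lengths and positions of their peaks. A region counted as paired when it measured at least 200 and under 1000 bp, when the nearest other region of 200 bp or more lay 100 to 1000 bp away, and when both regions came from different peaks in each of the 2 lists. Of 25715 regions, 24874 reached 200 bp and 23813 were also under 1000 bp, called short below. The rule kept 2524 of them, which was 9.82% of all regions and 10.6% of the short ones, with 1.09 Mb in all. For comparison, 17908 regions of the same length range were unpaired, with the nearest region more than 1000 bp away. The remaining 3381 short regions had a neighbour nearer than that but failed the rule. For 401 of them the gap was under 100 bp, and for 2980 the gap lay in range but 1 list held both regions in a single peak.

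Trimethylation of histone H3 at lysine 4 marks the nucleosomes around active gene starts in plants, mostly just downstream of the start of transcription. A gap between neighbouring stretches of the mark can fall on a nucleosome-poor gene start, or between the starts of neighbouring genes. Trimethylation at lysine 27 is laid down by Polycomb repressive complex 2 on silent genes, and in plants both marks can be found at the same locus.

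The material was male meiocytes of Oryza sativa, the pollen mother cells, taken at early prophase I and at low cell number, with no genotype, cultivar or treatment given in the labels. Chromatin was cut with micrococcal nuclease, sonicated and then precipitated with an antibody against H3K4me3 (2 replicate libraries) or H3K27me3 (2 replicate libraries), and the input library of the series was not analysed here. The labels speak of biological replication without saying which plants or pools each library came from. No source used here names the genome build, so no region was assigned to a gene and the cell type could not be checked against marker genes.

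Each library was given as a list of called peaks, so read depth is unknown. A valley means only that the 2 H3K4me3 lists did not both have a peak called there. The H3K4me3 lists held 29941 and 27411 peaks, with a median −log10 q of 17.8 in replicate 1 and 6.42 in replicate 2. Their smallest gaps between peaks were 85 and 87 bp, close to the lower gap limit of the rule. The H3K27me3 lists held 19774 and 19450 peaks. Their replicates stood apart at paired and unpaired regions alike. Of the 2524 paired regions, 261 (10.3%) touched H3K27me3 in replicate 1 alone, 6 (0.238%) in replicate 2 alone and 326 (12.9%) in both. Of the 17908 unpaired regions, 1353 (7.6%) did so in replicate 1 alone, 40 (0.223%) in replicate 2 alone and 2470 (13.8%) in both. Values for H3K27me3 are therefore given for each list. Wilson intervals (95%) beside shares cover counting error only, since neighbouring regions are not independent.

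Most paired regions formed simple doublets. Of the 2524 regions, 2262 (89.6%) were each other's nearest region and made up 1131 mutual pairs. Of the other 262, 68 had a nearest region that was paired with yet another one, 62 lay beside a region of 1000 bp or more, and 132 lay beside a short region that did not meet the rule itself. With only H3K4me3 peaks at a −log10 q of 5 or more, 1421 paired regions and 655 mutual pairs were found. Runs of consecutive paired regions were short, with 1068 runs of 2 regions, 62 of 3 and 3 of 4. The mutual pairs measured 594 to 2585 bp from outer edge to outer edge, with a median of 1320 bp. In 11 of them the gap held a further region under 200 bp, which the rule passes over.

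Gaps were spread over the whole range that the rule allows, with most between 200 and 500 bp. The gap of a mutual pair ran from 102 bp up to the limit of the rule, with a median of 438 bp and quartiles of 291 and 679 bp. In classes of 100 bp, each named by its lower limit, 81 pairs fell in the class from 100 bp, 223 (19.7%) in that from 200 bp, 195 (17.2%) in that from 300 bp and 154 (13.6%) in that from 400 bp. The classes above held 130, 75, 103, 84 and 86 pairs. The class from 200 bp was the fullest, and the counts were nearly flat from 600 bp upwards.

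The requirement for separate peaks in both lists removed mainly the narrowest valleys. Another 1390 pairs of neighbouring short regions had a gap in range but were separate peaks in 1 list only. In 1338 of these pairs it was replicate 1 that held both regions in a single peak, against 52 for replicate 2. Their median gap was 167 bp, and 913 of the 1390 (65.7%) had a gap under 200 bp. In the mutual pairs, too, the valley was narrower in replicate 1, where the peaks lay a median of 287 bp apart, than in replicate 2, where they lay 418 bp apart. With the rule applied to 1 list alone, the median gap was 276 bp in replicate 1 (2551 mutual pairs) and 243 bp in replicate 2 (3271 mutual pairs). Peaks of replicate 1 filled 27.6% of the gap bases of the mutual pairs and peaks of replicate 2 filled 3.57%.

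**Figure D1:**
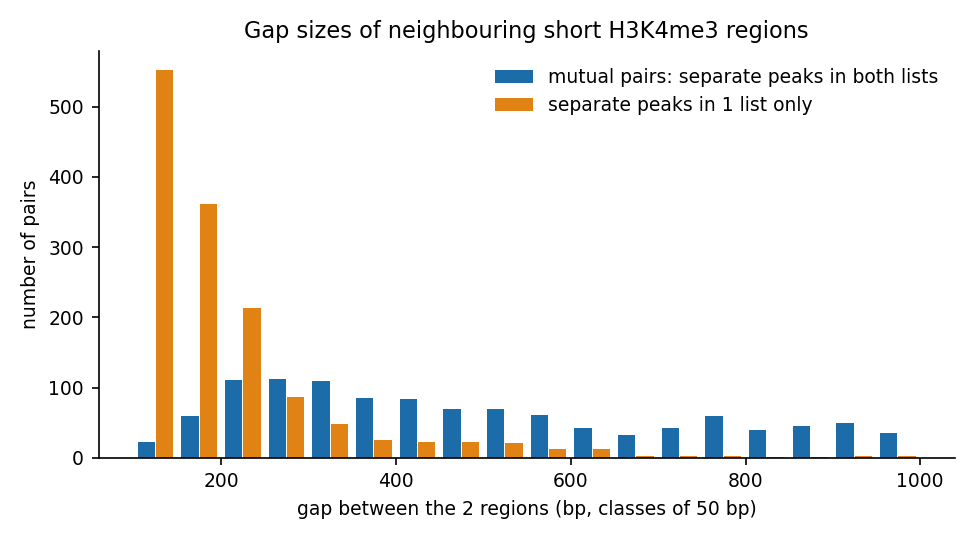
Number of pairs (vertical axis) by gap between the 2 regions (horizontal axis, bp, classes of 50 bp). Blue bars are the 1131 mutual pairs, separate in both H3K4me3 lists, with a median gap of 438 bp. Orange bars are the 1390 pairs of neighbours that were separate in 1 list only, with a median of 167 bp.

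In the spacing of all regions of 200 bp or more, close neighbours were frequent and neighbours at 1000 to 1800 bp scarce. Among all such neighbouring regions, the class from 100 bp held 1084 gaps, that from 200 bp held 611 and that from 300 bp held 321. Much of this excess lay where the lists differed. In the class from 100 bp, 913 gaps were in pairs that were separate peaks in 1 list only, and 81 in mutual pairs. In the class from 200 bp these were 301 and 223. The counts came down to 91 in the class from 1400 bp and were 150 in that from 2000 bp. Every class from 1000 to under 1800 bp held 91 to 122 gaps, fewer than any class below 1000 bp, where the lowest count was 123, or any of the 10 classes from 2000 bp up to that from 2900 bp, where it was 130.

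The distance between summits, the points of highest signal within the peaks, was similar in the 2 lists. Its median over the 1131 mutual pairs was 842 bp in replicate 1 (quartiles 631 and 1092 bp) and 871 bp in replicate 2 (quartiles 656 and 1120 bp). The lowest distance was 316 bp in replicate 1 and 282 bp in replicate 2, and the highest was 2867 bp in replicate 1 and near 2000 bp in replicate 2. For a single pair the lists differed by a median of 95 bp, and 365 pairs (32.3%) were within 50 bp, 582 (51.5%) within 100 bp and 833 (73.7%) within 200 bp of each other. Over the pairs the distances had a Pearson's r of 0.770 and a Spearman's rho of 0.789 between the lists. Both lists share the same regions and gaps, so this is a description of how closely the lists place the summits.

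The summit distance grew with the gap while region length changed little. Since the summit distance takes in the gap, this rise is largely built in. In pairs with a gap in the class from 200 bp its median was 587 bp in replicate 1 and 600 bp in replicate 2, and in the class from 900 bp it was 1324 and 1348 bp. The mean length of the 2 regions had a median between 386 and 443 bp in every class of gap.

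**Figure D2:**
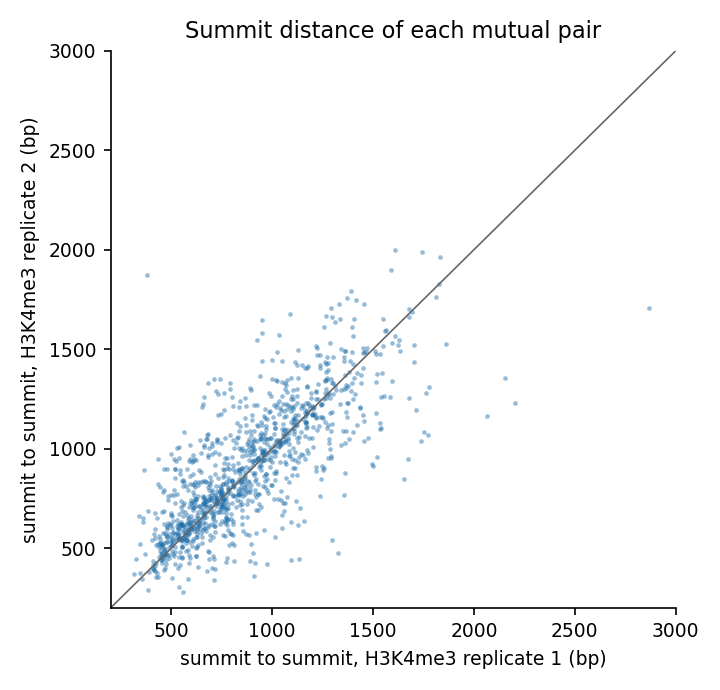
Distance between the summits of each of the 1131 mutual pairs in H3K4me3 replicate 1 (horizontal axis, bp) and replicate 2 (vertical axis, bp). Each point is 1 pair and the line marks equal distances. Most points lie along the line, and 73.7% of pairs differed by at most 200 bp.

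Summits sat slightly towards the partner. Among paired regions whose summit lay inside the region, the summit fell on the partner's side of the midpoint in 1428 of 2399 (59.5%, interval 57.6 to 61.5%) in replicate 1 and in 1366 of 2503 (54.6%, 52.6 to 56.5%) in replicate 2. In unpaired regions the side facing the nearest region held 53.3% (52.5 to 54.1%) of summits in replicate 1 and 50.8% (50.1 to 51.6%) in replicate 2. In replicate 1 the lean was no larger than in unpaired regions with a neighbour at over 1000 and up to 2000 bp, where it was 60.0% (57.6 to 62.3%), and in replicate 2 these stood at 52.2% (49.9 to 54.5%). The edges of a region and its facing side come from the same peaks as the summits, so the lean is a description and no test was made.

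Paired regions were shorter and ranked lower by fold enrichment than unpaired ones. Their median length was 392 bp, against 434 bp in unpaired regions. Fold enrichment is the value the authors' peak caller gave to a peak, used here only as a percentile within its own list. The median percentile was 47.3 in paired and 60.1 in unpaired regions in replicate 1, a difference of −12.9 points. In replicate 2 the medians were 50.01 and 54.1, a difference of −4.10 points. The peaks that carry these ranks also define the regions, so no test was made.

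The difference in replicate 1 was present at every length. In classes of 100 bp it lay between −18.2 and −2.50 points in replicate 1. In replicate 2 it lay between −6.44 and 3.37 points, and the class from 700 bp had the positive value. The top 25% of each list by fold held 20.0% of paired and 32.3% of unpaired regions in replicate 1, and 24.1% and 28.2% in replicate 2.

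The partners of a pair differed in rank. Their fold percentiles differed by a median of 21.96 points in replicate 1 and 27.3 points in replicate 2, and the ranks of the partners had a Spearman's rho of 0.229 and 0.115 over the 1131 pairs. For neighbouring short regions over 2000 and up to 5000 bp apart the rho was 0.192 and 0.0544. The same partner ranked higher in both lists in 701 of 1128 pairs without ties (62.2%), against 1467 of 2187 (67.1%) for those neighbours. The longer partner was the higher ranking one in 62.0% of pairs in replicate 1 and 58.2% in replicate 2. The shorter partner had a median length of 300 bp and the longer one of 502 bp.

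The 10 mutual pairs with the highest ranks had all 4 fold percentiles (2 regions in 2 lists) at 81.5 or above. They lay on 6 chromosomes and had gaps of 246 to 752 bp, with a median of 329 bp. None of their 20 regions touched H3K27me3 in either list. Few regions of high rank did so at all. Among paired regions with a mean fold percentile above 80, the share was 3.83% in H3K27me3 replicate 1 and 1.39% in replicate 2. The first lay on chromosome 7, with regions at 4155459 to 4155954 and 4156468 to 4157205. Its lowest percentile was 90.8, but the summits lay 762 bp apart in replicate 1 and 1281 bp apart in replicate 2. The second lay on chromosome 11 at 671040 to 671485 and 671905 to 672325, with summits 865 and 884 bp apart and a lowest percentile of 90.0. The lists thus placed these summits at nearly the same distance. The third lay on chromosome 9 at 16552887 to 16553183 and 16553460 to 16553960, across a gap of 276 bp, with summits 537 and 552 bp apart. A pair on chromosome 7 at 26301855 to 26302145 and 26302467 to 26302899 was uneven in replicate 1, where its regions ranked in the 99.8th and 81.5th percentile, and less so in replicate 2, where they ranked in the 99.7th and 92.8th.

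The longest runs held regions of mixed rank. The 3 runs of 4 regions lay on chromosome 6 at 8237008 to 8240067, on chromosome 3 at 6402624 to 6405891 and on chromosome 7 at 28738916 to 28742758. Their spans were 3060, 3268 and 3843 bp. On chromosome 6 the regions ranked between the percentiles 4.16 and 54.4 in replicate 1 and 2.48 and 17.8 in replicate 2. On chromosome 3 these were 19.5 and 50.7 in replicate 1 and 1.99 and 84.01 in replicate 2, and on chromosome 7 they were 9.69 and 55.01 in replicate 1 and 12.9 and 53.6 in replicate 2. None of the regions of the first and second run touched H3K27me3, and the third had it on 1 region, the same one in both lists. The other runs named, of 3 regions each, lay on chromosome 10 at 15450637 to 15452052 and on chromosome 4 at 4358870 to 4360491. All 3 regions touched H3K27me3 replicate 1 in both of these runs. In replicate 2 there were 2 on chromosome 10 and 0 on chromosome 4. The highest ranking region of the run on chromosome 10 was at 67.9 in H3K4me3 replicate 1 and 85.3 in replicate 2, and that on chromosome 4 reached 50.6 in replicate 1 and 23.8 in replicate 2.

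The rule did not use H3K27me3, so its presence at paired and unpaired regions could be compared. A region was counted as touching H3K27me3 when at least 1 bp lay in a peak. In H3K27me3 replicate 1, 587 of 2524 paired regions (23.3%, 21.7 to 24.9%) touched a peak, against 3823 of 17908 unpaired regions (21.3%, 20.8 to 22.0%). In replicate 2 the counts were 332 paired regions (13.2%, 11.9 to 14.5%) and 2510 unpaired regions (14.0%, 13.5 to 14.5%). Among all 23813 short regions the shares were 22.3% in replicate 1 and 14.0% in replicate 2, and 13.8% for bases covered in both lists, where paired regions stood at 12.9%. The paired regions were thus close to this background.

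The difference between paired and unpaired regions had opposite signs in the 2 lists, at 1.91 percentage points in replicate 1 and −0.862 points in replicate 2, with a mean of 0.523 ± 1.96 points (SD, n = 2 lists). The mean was thus smaller than the SD between the lists. An exact sign-flip permutation test over the lists gave a two-sided p = 1, where the smallest possible is 0.5. With 2 lists of opposite sign the test can give no other value, so it decides nothing here. With the unpaired regions weighted to the fold percentiles of the paired ones, the difference was −2.19 points in replicate 1 and −3.62 points in replicate 2. Over all 14 alternative settings the mean lay between −2.90 and 3.48 points, below 0 in 8 and above 0 in 6.

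Split by H3K4me3 rank, the weakest paired regions carried H3K27me3 less often than unpaired ones of the same rank. Among regions with a mean fold percentile under 20, 43.6% of 321 paired and 57.2% of 1591 unpaired regions touched H3K27me3 in replicate 1, and 29.3% and 39.0% in replicate 2. From 20 to 40 the shares were 33.7% of paired and 39.8% of unpaired regions in replicate 1, and 17.6% and 25.9% in replicate 2. In both lists and both classes the paired regions were lower. From 60 to 80 they were higher in replicate 1, at 11.7% against 8.35% in unpaired regions, and within 0.101 points in replicate 2. Above 80 few regions of either kind touched H3K27me3, with 3.83% of paired and 2.16% of unpaired regions in replicate 1 and 1.39% and 1.45% in replicate 2. No test was made between the classes.

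**Figure D3:**
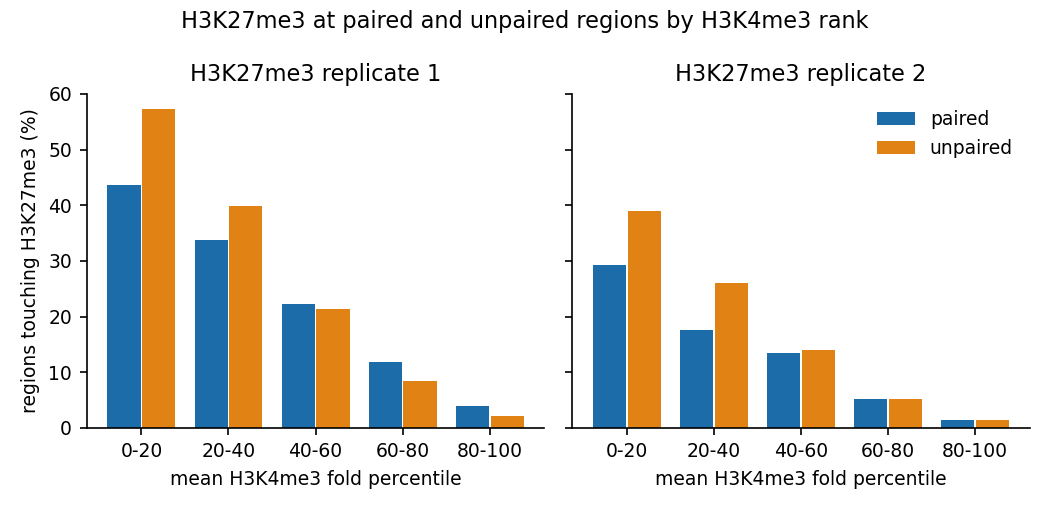
Share of paired (blue) and unpaired (orange) regions that touched H3K27me3 (vertical axis, %), by the mean of their fold percentiles in the 2 H3K4me3 lists (horizontal axis, 5 classes), for each H3K27me3 list. Below the 40th percentile the blue bars are lower in both lists, for example 43.6% and 57.2% in the lowest class of replicate 1.

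Over distance to the nearest region, the share with H3K27me3 was lowest in regions spaced at middle distances. In replicate 1 it was 23.3% in paired regions, 25.1% at over 1000 to 2000 bp, 19.7% at up to 5000 bp, 18.6% at up to 10000 bp and 26.1% beyond. Replicate 2 gave 13.2%, 15.6%, 12.5%, 11.9% and 18.7% in the same order. In both lists the regions between 1000 and 2000 bp and those beyond 10000 bp stood highest. The median H3K4me3 fold percentile in the same order was 47.3, 51.9, 61.1, 63.1 and 57.4 in H3K4me3 replicate 1 and 50.01, 49.0, 55.1, 55.7 and 52.1 in replicate 2. In replicate 2 it was higher wherever the share was lower from one class to the next, whereas in replicate 1 paired regions had the lowest percentile without the highest share. Its part in the order by distance was not tested.

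**Figure D4:**
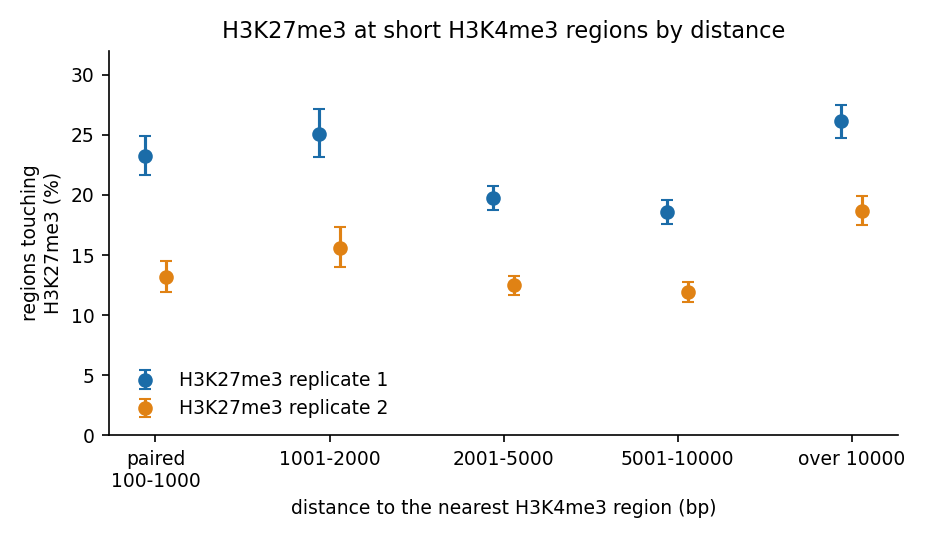
Share of short H3K4me3 regions touching H3K27me3 (vertical axis, %) by distance to the nearest other H3K4me3 region (horizontal axis, bp), with paired regions first. Points are the 2 H3K27me3 lists and bars are 95% Wilson intervals. Paired regions stand at 23.3% and 13.2%, regions more than 10000 bp from the next at 26.1% and 18.7%.

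Within the paired regions, those with the narrowest gaps touched H3K27me3 most often and those with a gap from 300 to under 400 bp least often. Below 200 bp, 50 of 164 regions did so in replicate 1 (30.5%, 24.0 to 37.9%) and 35 in replicate 2 (21.3%, 15.8 to 28.2%). From 300 to under 400 bp, 64 of 415 did so in replicate 1 (15.4%, 12.3 to 19.2%) and 32 in replicate 2 (7.71%, 5.52 to 10.7%). The other classes lay between 20.0 and 28.0% in replicate 1 and between 10.7 and 16.4% in replicate 2. The median H3K4me3 fold percentile was 35.9 in the first of these classes and 56.0 in the second in replicate 1, and 51.8 and 54.1 in replicate 2, and its part in this pattern was not tested. The classes were set by the rule and not compared by a test.

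Over all gaps, pairs with H3K27me3 on both regions outnumbered those with it on 1, but at gaps of 500 bp or more they did not. In replicate 1, 197 of the 1131 mutual pairs (17.4%, 15.3 to 19.7%) had it on both regions, 139 (12.3%) on 1 and 795 (70.3%) on neither. In replicate 2 these were 110 (9.73%, 8.13 to 11.6%), 88 (7.78%) and 933 (82.5%). With only H3K27me3 peaks at a −log10 q of 5 or more, the share of pairs with both regions touched was 8.93% in replicate 1 and 3.27% in replicate 2. Put per region, 73.9% of the touched regions in replicate 1 and 71.4% in replicate 2 had a touched partner. For neighbours over 1000 and up to 2000 bp apart these shares were 54.1 and 45.7%, and for neighbours over 5000 and up to 10000 bp apart 34.4 and 22.2%. They were higher, at 89.4 and 86.5%, in the pairs that were separate peaks in 1 H3K4me3 list only, whose median gap was 167 bp. In those pairs both regions were touched in 24.5% in replicate 1 and 12.7% in replicate 2. Within the mutual pairs the shares were 90.3 and 90.2% at gaps under 300 bp, 74.8 and 69.8% from 300 to under 500 bp and 63.5 and 58.7% from 500 to 1000 bp, so they were lower the wider the gap in both lists. Counted as pairs, both regions against 1 region were touched in 70 against 15 pairs in replicate 1 and 46 against 10 in replicate 2 at gaps under 300 bp. From 300 to under 500 bp the counts were 46 against 31 and 22 against 19, and from 500 to 1000 bp they were 81 against 93 and 42 against 59.

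Where both regions of a pair were touched, a single H3K27me3 peak often reached both, without necessarily covering them in full. It did so in 148 of the 197 pairs with both regions touched in replicate 1 (75.1%) and in 79 of 110 in replicate 2 (71.8%), and the remaining 49 and 31 pairs had separate peaks. The spanning peaks had a median length of 1824 bp in replicate 1 and 1895 bp in replicate 2. Such a peak covers the gap by definition, so no break in H3K27me3 across the H3K4me3 valley was possible in these pairs. The smallest gaps between peaks in the H3K27me3 lists were 333 and 277 bp, so a break narrower than that could not appear in them, and the shares at gaps under 300 bp carry the same limit. H3K27me3 was absent from the gap of all 795 and 933 pairs with neither region touched. This was largely fixed by size. The H3K27me3 peaks had median widths of 733 and 619 bp, and the median gaps of these pairs were 417 and 426 bp. A peak in the gap would thus mostly touch a region as well. Over all mutual pairs, H3K27me3 covered 20.7% of the bases of the regions, 14.1% of the gaps and 10.7% of the 500 bp on the outer sides in replicate 1, and 11.04, 7.4 and 5.95% in replicate 2. In unpaired regions it covered 18.5% of the region and 11.3% of the 500 bp on either side in replicate 1, and 11.2 and 7.07% in replicate 2.

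Pairs with H3K27me3 on both regions were weak in H3K4me3. Their regions had a median fold percentile of 26.4 in H3K4me3 replicate 1 and 35.5 in replicate 2 by the first H3K27me3 list, and of 23.9 and 33.4 by the second. Pairs with neither region touched had medians of 56.3 and 54.1 by the first H3K27me3 list and 52.9 and 52.4 by the second. Pairs touched on 1 region lay between and had wider gaps, with a median of 644 bp by the first list and 601 bp by the second, against 438 and 395 bp where both were touched. In these one-sided pairs the touched partner was the weaker one by H3K4me3 replicate 1 in 92 of 139 (66.2%, 58.0 to 73.5%) with the first H3K27me3 list and in 59 of 88 (67.0%, 56.7 to 76.0%) with the second. By H3K4me3 replicate 2 the shares were nearer to equal, at 54.7% (46.4 to 62.7%) and 60.2% (49.8 to 69.8%). These ranks come from the peaks that the rule used and pairs are not replicates, so no test was made.

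The H3K27me3 found at paired regions was itself of lower rank than at unpaired ones. The touching H3K27me3 peak had a median fold percentile in its own list of 49.7 at paired and 59.9 at unpaired regions in replicate 1, and of 31.0 and 42.5 in replicate 2. Its median width was 1241 bp at paired and 1058 bp at unpaired regions in replicate 1, and 974 and 973 bp in replicate 2. These medians are over regions, so a peak that reached both regions of a pair was counted for each. That was so in 148 mutual pairs in replicate 1 and 79 in replicate 2, with median peak lengths of 1824 and 1895 bp. The part of this double counting in the differences was not tested. Of the 325 paired regions touching bases covered in both H3K27me3 lists, 171 lay in H3K27me3 regions under 1000 bp, 67 in those from 1000 to under 2000 bp, 68 in those from 2000 to under 5000 bp and 19 in those of 5000 bp or more. The last class held 5.85% of paired and 6.85% of unpaired touched regions.

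In 60 of the 1131 mutual pairs both regions lay wholly inside H3K27me3 peaks of both lists. Such full cover was about as common elsewhere. Among regions touching bases covered in both lists, 61.9% of paired and 63.3% of unpaired ones were wholly covered. The 5 of the 60 pairs in the longest H3K27me3 regions lay on chromosomes 1, 4, 5 and 8. The first, on chromosome 8 at 769017 to 769442 and 770111 to 770432, lay in an H3K27me3 region of 12138 bp. Its H3K4me3 regions ranked in the 31.4th and 30.8th percentile in replicate 1 and in the 8.84th and 35.7th in replicate 2, and their summits lay 1115 and 1148 bp apart. The second, on chromosome 4 at 28414100 to 28414360 and 28414653 to 28415182, lay in one of 9358 bp. Its H3K4me3 regions ranked in the 64.3rd and 16.1st percentile in replicate 1 and in the 65.7th and 66.3rd in replicate 2, so that the lists differed for the second region. The third, on chromosome 1 at 38612219 to 38612494 and 38612965 to 38613638, lay in one of 7709 bp, and its summits lay 1235 bp apart in replicate 1 and 761 bp apart in replicate 2. The other two lay in H3K27me3 regions of 6318 bp on chromosome 5 and 6105 bp on chromosome 8.

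With the rule on both lists, paired regions made up a larger share of short regions on chromosomes 1 to 4 than on the others. The share was 12.3% on chromosome 3 (11.2 to 13.5%), 12.2% on chromosomes 1 and 4 and 11.7% on chromosome 2. It was 10.7% on chromosome 10 (9.13 to 12.5%, an interval that takes in the values of the first 4) and between 8.39 and 9.87% on chromosomes 5 to 9. The lowest values were 8.27% on chromosome 12 (6.82 to 9.99%) and 7.85% on chromosome 11 (6.46 to 9.53%). With the rule applied to 1 list alone, chromosome 11 was lowest in replicate 1 (19.3%) and chromosome 12 in replicate 2 (22.95%). The highest were chromosome 10 in replicate 1 (24.9%) and chromosome 5 in replicate 2 (29.2%). The lead of chromosomes 1 to 4 over all others thus did not hold in either list alone. Over the 12 chromosomes the paired share and the number of short regions per Mb had a Pearson's r of 0.722 and a Spearman's rho of 0.580. The part of this density in the order was not tested. The share touching H3K27me3 was higher in paired than in unpaired regions in both lists on 4 chromosomes (2, 8, 10 and 11), lower in both lists on 4 (3, 4, 5 and 7) and of opposite direction in the lists on the other 4. In replicate 1 the widest gaps either way were 46.2% in paired against 31.0% in unpaired regions on chromosome 11, which held 93 paired regions, and 20.0% against 23.4% on chromosome 7. No test was made by chromosome.

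Along the chromosomes the share was lowest near the middle and highest towards the ends. With each of the 12 chromosomes cut into 10 equal parts from its start and like parts pooled, it was 11.6% in the first part, 5.46% in the fifth and 13.7% in the last. With 1 list alone the fifth part was again lowest, at 14.7% in replicate 1 and 19.7% in replicate 2. The share also moved with the density of the mark. It was 5.27% where at most 4 other regions lay within 50 kb and 15.8% where 12 to 25 did, and a closer spacing gives more neighbours within reach of the rule. A paired region had a median of 10 other regions within 50 kb, its partner included, and an unpaired one of 8, a difference that the rule fixes in part. Beyond a mutual pair the next region lay a median of 4742 bp away.

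**Figure D5:**
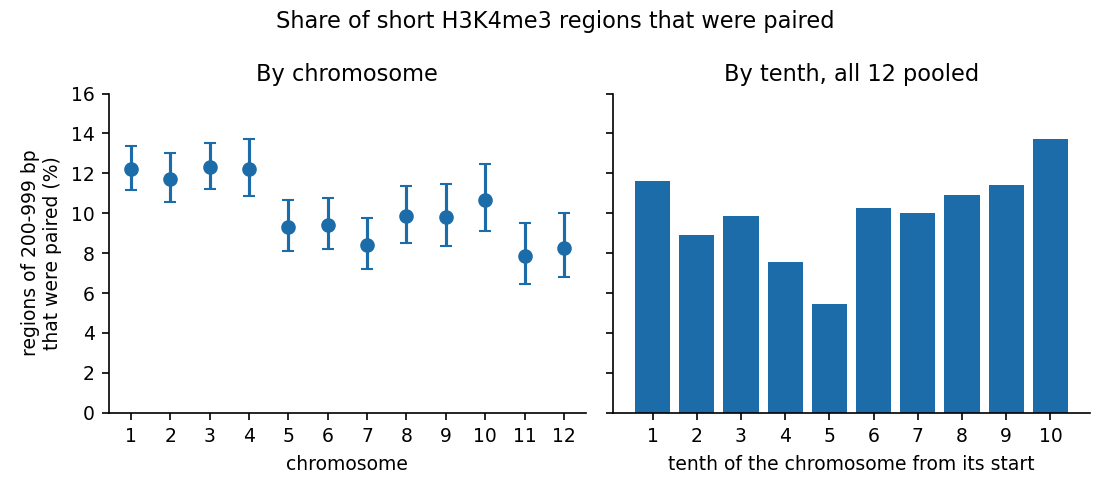
Share of short H3K4me3 regions that were paired (vertical axis, %), by chromosome with 95% Wilson intervals (left) and by 10 equal parts of the chromosome from its start, all 12 chromosomes pooled (right). Chromosomes 1 to 4 stand between 11.7 and 12.3%, and the share runs from 5.46% in the fifth part to 13.7% in the last.

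Regions within 50 bp of the limits of the rule had these values, given as a description. The 84 paired regions just inside the largest gap had median fold percentiles of 56.7 and 48.6 in the 2 H3K4me3 lists, and 14.3 and 10.7% of them touched H3K27me3 in its 2 lists. The 109 regions just beyond that gap had 44.7 and 47.7, and 32.1 and 22.9% of them touched H3K27me3. The 44 paired regions just above the smallest gap had 28.4 and 44.2, against 57.3 and 40.3 for the 401 short regions with a gap under 100 bp. The 26 paired regions just under 1000 bp in length had 72.7 and 69.8, against 71.8 and 71.9 for 16 regions that met the rule but for a slightly greater length. The 397 paired regions just above 200 bp had 30.5 and 36.9, against 15.8 and 37.2 for 74 regions just below.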

How the data were processed

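Peaks of 4 chromatin immunoprecipitation libraries (2 per mark) were analysed as deposited by the authors. MACS2, Bowtie2, fastp, Picard, SAMtools and deepTools are listed in the submitters' processing notes, without role or order. No source used here gives versions, thresholds, the control or the genome build. The names of the peaks bear tags such as "merge" and "subsample" that differ by library, and libraries may have been handled differently. The fold enrichment deposited by the authors, a ratio to background, served only to rank peaks within a list. The deposited −log10 p and score were not used, and the deposited −log10 q served as a threshold of 5 in alternatives. Summits are the authors' own. The depth in reads is unknown.

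Regions, gaps and overlaps were computed with Python 3.11.15, numpy 2.4.6 and scipy 1.17.1, and figures drawn with matplotlib 3.10.9. A region's rank and summit are those of the peak with most bases in it. Touching means at least 1 bp. The code was tested on simulated lists with planted pairs. The members, classes and comparisons were chosen with earlier results of these data known. Lists are the replicates (n = 2 per mark), and regions are not. No gene was named. The regions named are the 10 mutual pairs with the highest lowest fold percentile, the 5 pairs wholly inside the longest H3K27me3 regions, and the 5 longest runs, ties going to the shortest span.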

Additional observations from a re-analysis of the deposited data

How the results depend on the processing

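The number of paired regions and mutual pairs depended on every setting of the rule. It was 1421 regions and 655 pairs with only H3K4me3 peaks at a −log10 q of 5 or more, 1656 and 497 for regions from 300 to under 800 bp, 1398 and 656 with a largest gap of 500 bp, and 5504 and 2521 when separate peaks in 1 list sufficed. On 1 H3K4me3 list alone there were 5987 to 7184 regions and 2551 to 3271 pairs. The median gap was 314 bp with a largest gap of 500 bp, 239 bp when 1 list sufficed, and 243 to 276 bp on 1 list. The mean of the median summit distances, 857 bp, was 916 bp for regions from 300 to under 800 bp, 688 bp for a largest gap of 500 bp and 651 to 760 bp on 1 list. When 1 list sufficed it was 327 bp, since such neighbours share a summit where they share a peak. The difference in fold percentile, a mean of −8.48 points, kept its sign in all 6 alternatives and was −18.3 to −9.22 points on 1 H3K4me3 list. The ratio of the highest to the lowest chromosome, 1.57, was 1.64 with the q threshold, 1.75 for regions from 300 to under 800 bp, 1.69 for a largest gap of 500 bp, 1.23 when 1 list sufficed and 1.27 to 1.29 on 1 list.

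The share touching H3K27me3, paired minus unpaired (a mean of 0.523 points over the lists), had no stable sign. It was −0.0137 points with the H3K4me3 q threshold, −1.02 with a largest gap of 500 bp, −0.384 with the same threshold for H3K27me3, −0.0315 against regions over 5000 bp from the next, −0.179 with lengths weighted and −2.90 with fold percentiles weighted. It was 1.92 when 1 list sufficed, 1.71 with local density weighted, 0.556 for regions from 300 to under 800 bp, 0.277 with at least 50% of a region covered, −0.862 to 1.91 points on 1 H3K27me3 list, and −0.243 to 3.48 points on 1 H3K4me3 list. Pairs with H3K27me3 on both regions, a mean of 13.6%, came to 6.10% with the H3K27me3 q threshold and to 9.73 to 17.4% on 1 H3K27me3 list. The lean of summits and the difference between paired regions and those over 5000 and up to 10000 bp apart moved by less than the spread between lists or kept their sign in all 6 alternatives. The cause of these changes was not tested beyond what each setting adds or removes. No paired analysis was possible because the libraries that share a replicate number carry different marks, whose values are in no test against each other. Paired and unpaired regions were compared within each H3K27me3 list. Unknown read depth limits all valleys, since a deeper library can fill or reveal one.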
